A study of Mus musculus with 6 samples.

Results

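The axon guidance genes of 4 ligand classes and their receptors were followed in endothelial cells (EC) of normal mouse brain and of glioma. Members were taken by gene symbol alone, as every semaphorin, plexin, neuropilin, ephrin, Eph receptor, netrin, Unc5, Slit and Robo gene in the files. They numbered 68 of 24421 genes, made up of 35 ligands (20 semaphorins, 8 ephrins, 4 netrins and 3 Slits) and 33 receptors (14 Eph receptors, 9 plexins, 4 Unc5 receptors, 4 Robo receptors and 2 neuropilins). The normal group held 3 libraries of EC sorted from normal brain of C57BL/6 mice. The glioma group held 3 libraries of sorted EC from tumors that had grown for 3 weeks after GL26l glioma cells were injected into the brain of mice of the same strain. Such a tumor is a graft of a cultured line, and the age and sex of the mice, the sort markers and any pooling of animals are not stated in the labels. The design text calls the 3 RNA sets of a group independent, but no label ties a set to its own animal, and the p-values rest on the spread among these 6 libraries, which may be technical. The comparison asks how tumor vessels differ from brain vessels at the RNA level.

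Guidance genes were first described in growing axons and also steer vessel sprouts. Semaphorins signal through plexins, and the secreted class 3 semaphorins mostly need a neuropilin as co-receptor, which in endothelium also binds VEGF. Ephrins are membrane-bound ligands of Eph receptor kinases, and ephrin-B2 and EphB4 mark arterial and venous endothelium. Netrins signal through DCC, neogenin and Unc5 receptors, of which Unc5b is the endothelial one, and Slits bind Robo receptors, while Robo4 is restricted to endothelium and can bind Unc5b.

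Values are given on the deposited log2(x + 1) scale, where x is a normalized 3′-end read value and a difference is glioma minus normal. The library kit reads the 3′ end of each transcript, so levels of different genes can be set side by side without a correction for length. Within each library no value lies between 0 and a lowest value, which was smallest, 0.22, in normal library 3 and largest, 7.43, in normal library 1, and a gene without a value is said to be listed at 0. Genes above 0 numbered 7446, 11853 and 13072 in the normal and 13108, 10954 and 10013 in the glioma libraries, here and below in the order of replicates 1, 2 and 3. Across the 5880 genes above 0 in all libraries, normal libraries 2 and 3 correlated at r = 0.97 and held the same value for 0.374% of them, whereas normal library 1 reached 0.58 and 0.60 with them and up to 0.67 with a glioma library. Glioma library 2 reached 0.78 and 0.82 with normal libraries 2 and 3, and 0.67 and 0.75 with glioma libraries 1 and 3. Glioma libraries 1 and 3 correlated at 0.54, the lowest of all pairs. These correlations run across genes, which are not independent replicates. The column headers of normal libraries 2 and 3 share a date-like suffix, as do those of glioma libraries 2 and 3, and no suffix crosses the groups, so what it marks and the group cannot be told apart. The headers of glioma libraries 2 and 3 also carry a word for control, and that of glioma library 3 does not name glioma, so its group rests on the sample labels. All 15 endothelial markers on the list used here, Pecam1, Cdh5 and Cldn5 among them, were above 0 in every library, and their summed level ran from 193.9 in glioma library 1 to 214.7 in normal library 3.

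No guidance gene passed the test between the groups. The endothelial receptors Robo4, Nrp1, Plxnd1 and Ephb4 had the highest mean levels over all libraries, though Plxnd1 fell to 9.77 in glioma library 3. Of the 68 members, 39 passed the filter on low values (x of at least 1 in at least 3 libraries) and were tested. The limma fit over 11862 genes called 0 members at a Benjamini-Hochberg adjusted p of 0.05, where it called 0% of all genes, and its smallest adjusted p was 0.875. An unadjusted limma p under 0.05 was reached by 509 genes, and among the members by Plxnb2, which was higher in glioma (as were 2.35% of all genes), and Sema3c, which was lower (1.94%). All glioma libraries exceeded all normal libraries for 2 tested members, Plxnb2 and Plxnc1, against 6.91% of all genes, and all lay below them for 1, Sema3c, against 6.37%. Neither count exceeded the background share. With 3 libraries against 3, an exact two-sided permutation test of a single gene cannot go below p = 0.1. The median difference was 0.09 over the 39 tested members, 21 of them positive, and 0.05 over all tested genes. It was 0.03 over the 20 tested ligands and 0.27 over the 19 tested receptors, but 0.03 and 0.06 over the 8 ligands and 11 receptors above 0 in all libraries.

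**Figure D1:**
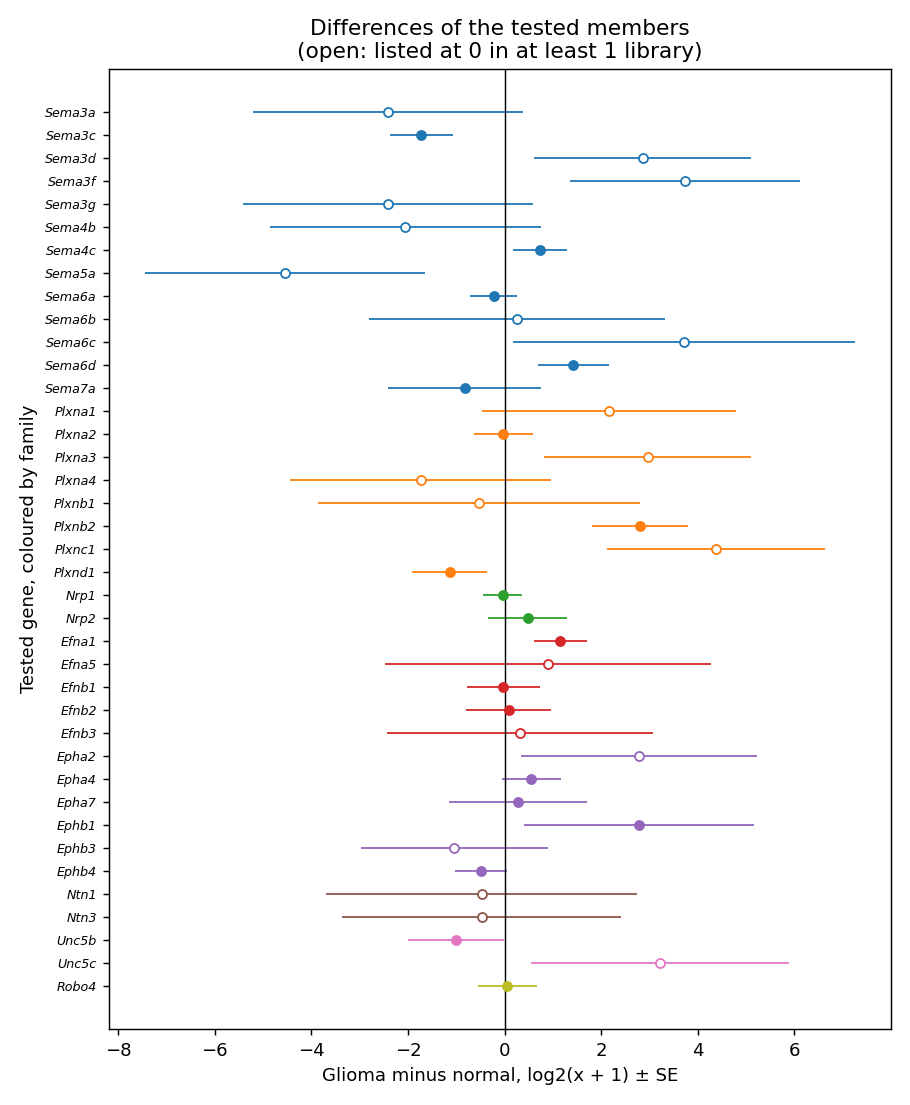
Difference between glioma and normal libraries on the log2(x + 1) scale for the 39 tested members (points, bars are the limma SE), coloured by family, with open points for genes listed at 0 in at least 1 library. Differences run from -4.55 (Sema5a) to 4.38 (Plxnc1), and the widest bars belong to open points.

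Plxnb2 (chromosome 15, 89155549 to 89180788, minus strand, GENCODE on GRCm38) encodes plexin-B2, a receptor of class 4 semaphorins. It measured 7.97, 6.88 and 6.60 in normal EC against 11.19, 8.44 and 10.24 in glioma EC. The lowest glioma library stood 0.47 above the highest normal library. The means were 7.15 ± 0.72 and 9.96 ± 1.39 (SD, n = 3 each). The difference was 2.81 (SE 0.99, limma adjusted p = 0.875), and it stayed between 2.19 and 3.56 with any 1 library left out. Normal libraries 2 and 3 lay below 7.43, the lowest value above 0 in normal library 1. With every value raised to that shared floor the difference of Plxnb2 was 2.35, and with a pseudocount of 64 it was 2.37. Markers of microglia and macrophages, cells that can carry plexin-B2 too, were above 0 for 5, 5 and 8 of 15 genes of normal EC and for 13, 2 and 13 of glioma EC. Their summed level was 22.1 to 43.1 in normal libraries and 66.8, 14.0 and 124.5 in glioma libraries 1, 2 and 3. In glioma library 2 only C1qa (6.78) and Ptprc (7.20) of the list were above 0, and the defining markers Cx3cr1, P2ry12, Tmem119, Aif1 and Csf1r were listed at 0. P2ry12 was at 0 in every library but glioma library 3. The part of these cells in the difference was not tested. In sorted bulk samples, more cells of a type and more RNA per cell cannot be told apart.

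Plxnc1 (chromosome 10, 94790866 to 94944835, minus strand) encodes plexin-C1, the plexin that binds Sema7a. It was listed at 0 in normal library 1, stood at 2.84 and 3.20 in normal libraries 2 and 3, and at 6.59, 6.57 and 6.01 in the glioma libraries. The groups were 2.82 apart at their nearest values, and the glioma libraries lay close together. The difference was 4.38 (SE 2.25, limma adjusted p = 0.875). All 6 values lie below 7.43, the lowest value above 0 in normal library 1, and with every value raised to that shared floor the difference was 0. On a scale with a pseudocount of 64 it was 1.10. The part of microglia and macrophages, whose markers are given above, was not tested for Plxnc1 either.

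Sema3c (chromosome 5, 17574281 to 17730268, plus strand) encodes a secreted class 3 semaphorin that signals through neuropilins and Plxnd1. It measured 10.66, 12.76 and 12.52 in normal EC against 10.62, 10.49 and 9.65 in glioma EC. Normal libraries 2 and 3 were clearly higher, whereas normal library 1 exceeded glioma library 1 by only 0.04, and the groups overlapped once each library was centred on its median. The means were 11.98 ± 1.15 and 10.25 ± 0.53 (SD, n = 3 each). The difference was -1.73 (SE 0.65, limma adjusted p = 0.875). Without normal library 1 it was -2.39 (limma adjusted p = 0.383), and over each library left out it ran from -2.39 to -1.34.

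**Figure D2:**
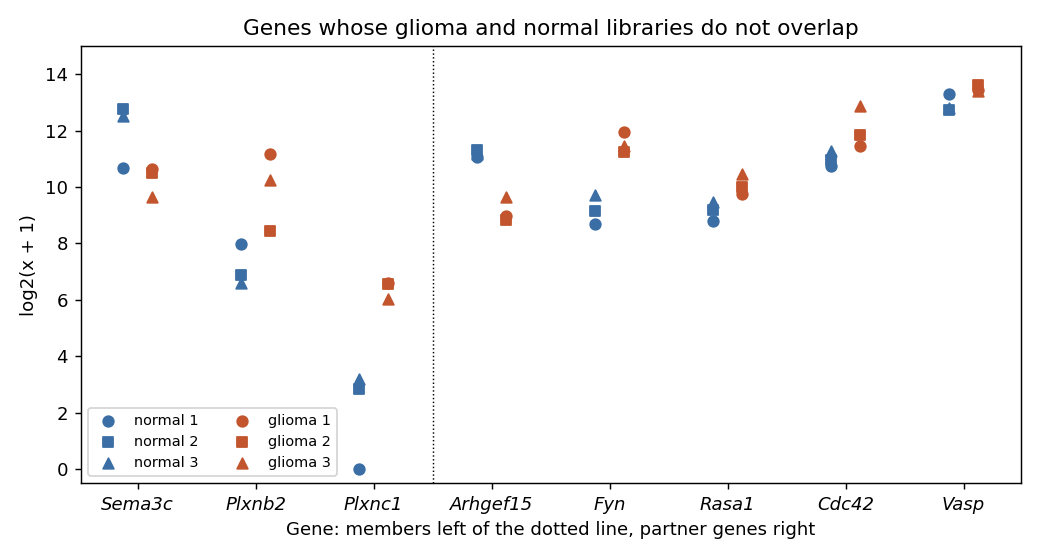
Values in each library (log2(x + 1); blue normal, orange glioma; circle, square and triangle are replicates 1, 2 and 3) of the 3 members and 5 partner genes whose groups do not overlap. The groups of Plxnc1 stand 2.82 apart and those of Sema3c only 0.04.

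The promoter windows of these 3 genes and of Robo4, the member with the highest level, are shown because they are the genes on which the description turns. RefSeq (GRCm38.p6) had an entry for 59 of the 68 members, and each window holds the 250 bases before the first start it lists, read 5′ to 3′ on the strand of the gene. Capitals mark ACGTG, the core of the hypoxia response element, and AGGAAG, a site of the ETS type, each searched on both strands (CACGT and CTTCCT). The motifs do not overlap each other in these windows.
Sema3c, chr5:17574566-17574815, + strand: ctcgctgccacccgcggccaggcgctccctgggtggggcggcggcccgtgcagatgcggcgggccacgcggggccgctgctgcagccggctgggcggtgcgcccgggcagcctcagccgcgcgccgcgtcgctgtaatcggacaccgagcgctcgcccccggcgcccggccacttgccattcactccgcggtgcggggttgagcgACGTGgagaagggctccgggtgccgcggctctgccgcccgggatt
Plxnb2, chr15:89180789-89181038, - strand: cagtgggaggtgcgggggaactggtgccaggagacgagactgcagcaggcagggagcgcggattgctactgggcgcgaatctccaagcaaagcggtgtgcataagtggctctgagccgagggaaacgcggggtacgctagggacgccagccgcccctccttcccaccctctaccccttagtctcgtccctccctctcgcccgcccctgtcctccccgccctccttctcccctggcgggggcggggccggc
Plxnc1, chr10:94944846-94945095, - strand: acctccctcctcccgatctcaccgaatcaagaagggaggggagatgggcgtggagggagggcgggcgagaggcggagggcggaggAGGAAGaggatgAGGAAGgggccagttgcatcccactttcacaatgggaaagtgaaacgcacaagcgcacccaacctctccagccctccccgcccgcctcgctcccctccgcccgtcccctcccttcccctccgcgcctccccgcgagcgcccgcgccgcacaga
Robo4, chr9:37401722-37401971, + strand: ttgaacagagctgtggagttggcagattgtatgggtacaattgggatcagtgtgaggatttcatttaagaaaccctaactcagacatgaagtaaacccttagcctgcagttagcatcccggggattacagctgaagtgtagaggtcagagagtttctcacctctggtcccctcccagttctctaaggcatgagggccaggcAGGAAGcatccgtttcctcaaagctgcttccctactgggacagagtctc
The Sema3c window held 1 ACGTG, 45 bases before the start, the Plxnc1 window 2 AGGAAG and the Robo4 window 1 AGGAAG, 49 bases before the start, while the Plxnb2 window held neither. ACGTG stood in 16.6% of all 32851 windows and in 10 of the 59 of members, and AGGAAG in 29.5% of all and in 20 of the 59. The 32851 windows cover every listed start, so a gene can count more than once, whereas members count by their first start only. The windows of Sema3c, Plxnb2 and Plxnc1 were rich in G and C (78.4%, 69.2% and 68.8%), and that of Robo4 was not (49.6%). The GENCODE models of Sema3c and Robo4 begin upstream of these RefSeq starts, at 17574281 and 37401897. The whole Sema3c window and the marked site of the Robo4 window therefore lie inside the annotated genes. The 3′-end reads do not show which start was used.

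Of the 68 members, 19 were above 0 in all 6 libraries, 8 ligands and 11 receptors. Robo4 led them at a mean of 13.40 over the 6 libraries, above 97.6% of the genes found in all libraries, followed by Nrp1 (12.86, above 95.5%), Plxnd1 (11.94) and Ephb4 (11.90). Next came Sema4c (11.40), Sema6d (11.38), Sema3c (11.12), Plxna2 (11.10) and Sema7a (11.04), and then Nrp2 (10.88), Efna1 (10.58) and Sema6a (10.44). Below 10 lay Unc5b (9.72), Epha4 (9.51), Efnb1 (9.19), Efnb2 (8.71), Plxnb2 (8.55), Epha7 (7.42) and Ephb1 (6.54). Neighbours in this order were not separated in all libraries. Robo4 exceeded Nrp1 in 5 of 6 libraries and Nrp1 exceeded Plxnd1 in 5, whereas Plxnd1 exceeded Ephb4 in 3 and Sema3c exceeded Plxna2 in 2. Another 7 members were listed at 0 in all 6 libraries, as were 8788 genes in all, namely Sema5b, Plxnb3, Efna3, Epha6, Epha8, Ntn4 and Ntn5.

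**Figure D3:**
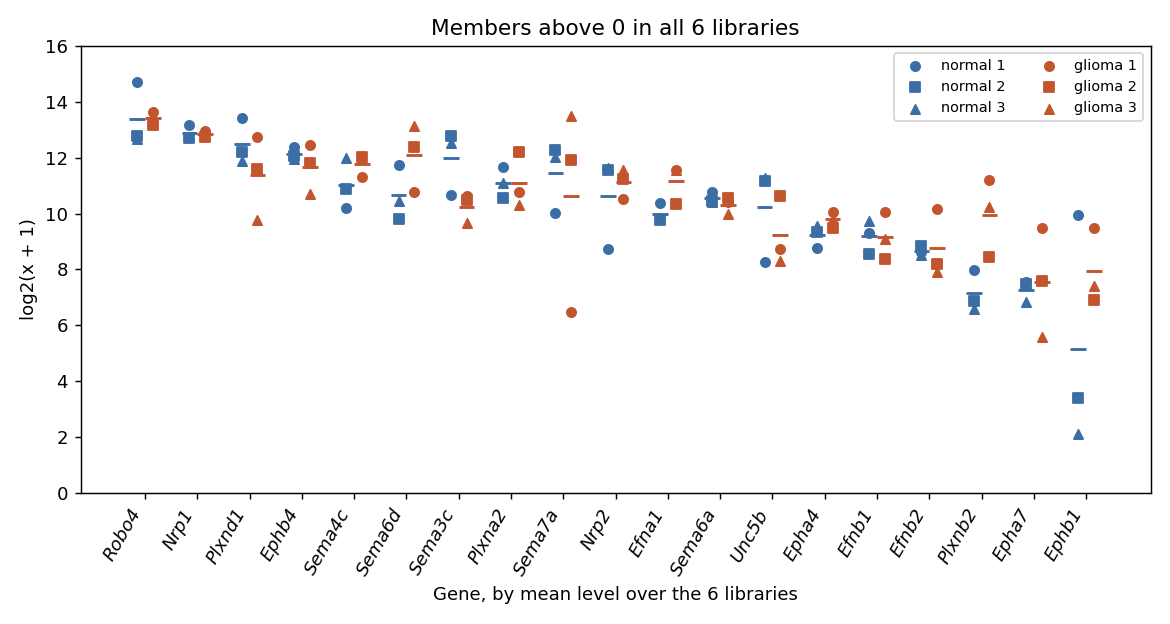
Level in each library (log2(x + 1); blue normal, orange glioma, marker shapes for replicates 1 to 3, short lines for group means) of the 19 members above 0 in all libraries, ordered by mean. Robo4 and Nrp1 stay above 12 in every library, and Sema7a spans 6.48 to 13.50.

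Among the semaphorins, 13 of 20 were tested, with a median difference of -0.22 against 0.05 over all genes, 6 differences positive and 7 negative. Leaving out normal library 1 gave a median of -0.82 and leaving out glioma library 1 gave 0.95, so the sign rests on single libraries. Of the class 3 semaphorins, Sema3f, a repellent ligand of neuropilin-2, measured 8.06, 0 and 5.38 in normal EC against 9.04, 7.47 and 8.15 in glioma EC. Normal library 1 overlapped the glioma values of Sema3f, and its difference of 3.74 (SE 2.39) fell to 0.58 with the shared floor. Sema3g, an arterial endothelial semaphorin, was listed at 0 in normal library 1 and glioma libraries 1 and 3 and stood at 6.85, 7.34 and 6.97 in normal libraries 2 and 3 and glioma library 2. It did not separate the groups, and each value was below the 7.43 that normal library 1 can show. Sema3a, a collapse-inducing ligand of Nrp1, was at 8.85 in normal library 1, at 3.77 and 0 in normal libraries 2 and 3, and at 5.38, 0 and 0 in the glioma libraries. Sema3d measured 0, 0 and 2.27 in normal EC against 2.87, 0 and 7.98 in glioma EC. Sema3e, the ligand that binds Plxnd1 without a neuropilin, was listed at 0 in 5 libraries and at 0.42 in glioma library 1, while its receptor was among the highest members, and Sema3b was above 0 only in normal library 3, at 0.58.

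The membrane-bound semaphorins held the steadiest and the most variable of the ligands with a mean above 10. Sema6a, a transmembrane semaphorin, measured 10.78, 10.45 and 10.41 in normal EC against 10.43, 10.56 and 9.98 in glioma EC. The groups overlapped, and the difference was -0.22 (SE 0.49). Sema6d, a ligand of Plxna1, measured 11.74, 9.81 and 10.44 in normal EC against 10.77, 12.38 and 13.13 in glioma EC. Glioma libraries 2 and 3 were the highest, glioma library 1 lay within the normal range, and the difference was 1.42 (SE 0.74, limma adjusted p = 0.875). Sema7a, a GPI-anchored semaphorin that binds integrins and plexin-C1, measured 10.03, 12.29 and 12.03 in normal EC against 6.48, 11.90 and 13.50 in glioma EC. Its lowest and highest values were both from glioma libraries, and its difference of -0.82 became 1.26 without glioma library 1. Sema4c, a ligand of plexin-B2, measured 10.22, 10.88 and 11.998 in normal EC against 11.32, 12.01 and 11.96 in glioma EC, with overlap.

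Other semaphorins were found in part of the libraries. Sema6b was at 8.91 and 8.97 in normal libraries 2 and 3 but listed at 0 in normal library 1, and at 2.22, 8.38 and 8.03 in the glioma libraries. Sema6c measured 0, 4.37 and 6.71 in normal EC against 11.98, 0 and 10.27 in glioma EC, so the glioma libraries held both its highest value and a 0. Sema5a measured 8.37, 7.01 and 6.66 in normal EC against 8.39, 0 and 0 in glioma EC, the largest negative difference among the members (-4.55, SE 2.90), which rests on the 2 glioma libraries at 0. Sema4b was above 0 in normal libraries 2 and 3 and glioma library 2, between 6.14 and 6.63. The other class 4 members Sema4a, Sema4d, Sema4f and Sema4g were at 0 in at least 3 libraries each and nowhere above 5.69.

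Among the receptors of semaphorins, all but Plxnb3 of the 11 plexins and neuropilins were tested, with a median difference of 0.23, 5 positive and 5 negative. That median lay between 0.0007 (without normal library 1) and 0.98 (without normal library 2) with a library left out, and came to -0.02 over those above 0 throughout and to -0.01 under the shared floor. Nrp1, a co-receptor for class 3 semaphorins and VEGF, had the smallest range of the 19 members above 0 in all libraries and measured 13.17, 12.71 and 12.74 in normal EC against 12.95, 12.72 and 12.84 in glioma EC. Its groups overlapped and differed by -0.04 (SE 0.41). Nrp2, its paralog of venous and lymphatic endothelium, was at 8.72 in normal library 1 but at 11.57 and 11.62 in normal libraries 2 and 3, and at 10.53, 11.25 and 11.57 in glioma. Its difference of 0.48 turned to -0.48 without normal library 1. Plxnd1, the main endothelial plexin, measured 13.41, 12.22 and 11.89 in normal EC against 12.74, 11.61 and 9.77 in glioma EC. Glioma library 3 was the lowest and the groups overlapped (difference -1.14, SE 0.78, limma adjusted p = 0.875), and without glioma library 3 the difference was -0.34. Plxna2 measured 11.67, 10.57 and 11.08 in normal EC against 10.76, 12.20 and 10.29 in glioma EC, a difference of -0.02.

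The remaining plexins were lower and patchy. Plxna1 was listed at 0 in normal library 1, at 6.91 and 6.71 in the other two, and at 6.20, 5.39 and 8.52 in glioma. Plxna4 measured 7.98, 4.92 and 5.26 in normal EC against 7.43, 5.53 and 0 in glioma EC, and Plxnb1 measured 0, 8.63 and 7.96 against 8.39, 6.61 and 0. Plxna3 measured 0, 0 and 2.54 in normal EC against 6.65, 4.78 and 0 in glioma EC. The groups overlapped for these 4 plexins. In the GENCODE annotation of mm10 an antisense gene overlaps the 3′ end of Plxna1, and whether counting used the strand is not stated in the labels.

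Of the 8 ephrins, 5 were tested and none passed, with a median difference of 0.32 that was -0.54 without glioma library 1. Efna1, a ligand of EphA2 induced by inflammatory signals, measured 10.38, 9.77 and 9.85 in normal EC against 11.57, 10.35 and 11.55 in glioma EC. Glioma libraries 1 and 3 exceeded every normal library, and glioma library 2 lay just below normal library 1, an overlap that was gone once the libraries were centred. The difference was 1.16 (SE 0.55, limma adjusted p = 0.875) and remained between 0.95 and 1.56 with any 1 library left out. Efnb2, the arterial ephrin, measured 8.63, 8.84 and 8.51 in normal EC against 10.15, 8.19 and 7.91 in glioma EC. Glioma library 1 was above and the other two below all normal libraries, and the difference of 0.09 became -0.61 without glioma library 1. Efnb1 measured 9.31, 8.56 and 9.73 in normal EC against 10.06, 8.36 and 9.10 in glioma EC. Efna5, Efnb3, Efna2 and Efna4 were highest in glioma library 1 (10.57, 8.66, 8.11 and 3.37) and listed at 0 in glioma library 3, and all but Efna5 were at 0 in glioma library 2 as well.

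Ephb4, the venous receptor of ephrin-B2, was the highest of the 14 Eph receptors and measured 12.40, 12.07 and 11.97 in normal EC against 12.46, 11.82 and 10.71 in glioma EC. Its groups overlapped, with a difference of -0.48 (SE 0.53) that came to -0.01 without glioma library 3 and to -0.88 without glioma library 1. Zan, a gene on the opposite strand, overlaps the 3′ end of Ephb4 in the annotation. Ephb4 exceeded its ligand gene Efnb2 in every library. Epha4, which binds ephrins of both classes, measured 8.77, 9.36 and 9.57 in normal EC against 10.06, 9.49 and 9.82 in glioma EC, a difference of 0.56 (SE 0.61). Epha2, the main EphA receptor of ephrin-A1 in tumor vessels, was listed at 0 in normal library 1, at 7.37 and 7.74 in normal libraries 2 and 3, and at 8.06, 8.68 and 6.75 in glioma. Without normal library 1 its difference of 2.79 shrank to 0.27. Epha7 measured 7.54, 7.47 and 6.83 in normal EC against 9.50, 7.57 and 5.60 in glioma EC, so its extremes were both from glioma.

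Ephb1 varied most within the normal group among the Eph receptors above 0 in all libraries, at 9.93 in normal library 1 against 3.42 and 2.12 in normal libraries 2 and 3, with 9.48, 6.89 and 7.42 in glioma, and 9630041A04Rik on the opposite strand overlaps its 3′ end. Ephb3 was at 3.77 and 3.72 in normal libraries 2 and 3, at 4.37 in glioma library 1 and at 0 elsewhere. The 6 tested Eph receptors had a median difference of 0.42, which was 0.26 under the shared floor and 0.30 without normal library 1. It was 0.73 without normal library 3, 0.90 without glioma library 3 and 0.87 with no filter on low values. Of the 8 not tested, Epha6 and Epha8 were at 0 throughout, and Epha1 was above 0 only in glioma library 3, at 7.13, where a gene on the opposite strand, Zyx, overlaps its 3′ end. Ephb2 was at 9.59 in glioma library 1 against at most 3.92 elsewhere, and Epha5 at 6.85 there against at most 3.42. Epha3, Epha10 and Ephb6 were each above 0 in a single library.

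Among netrins, Slits and their receptors, 5 of 15 members were tested, and only Robo4 and Unc5b were above 0 in all libraries. The median difference of the 5 was -0.47, with 2 positive and 3 negative. Robo4 measured 14.70, 12.76 and 12.66 in normal EC against 13.65, 13.16 and 13.49 in glioma EC. Normal library 1 was the highest and normal libraries 2 and 3 the lowest of all 6, and the difference was 0.06 (SE 0.61). Unc5b, a netrin receptor of tip cells and arteries, measured 8.25, 11.16 and 11.26 in normal EC against 8.73, 10.63 and 8.30 in glioma EC. Normal library 1 was the lowest here, and the difference of -1.01 (SE 0.99) was -1.99 without it (limma adjusted p above the threshold in each case). Unc5c, mostly a neuronal receptor, was at 9.02 and 4.78 in glioma libraries 1 and 2 and at 3.92 and 0.22 in normal libraries 2 and 3, and Unc5a, whose 3′ end overlaps Hk3 on the opposite strand, at 7.79 in glioma library 1 and 3.42 in normal library 2. Unc5d was above 0 in normal library 2 (2.84) and glioma library 1 (1.42) only. Ntn1, the secreted netrin-1, measured 0, 7.70 and 7.46 in normal EC against 5.51, 8.22 and 0 in glioma EC, and Ntn3 measured 0, 6.41 and 6.31 against 6.70, 4.59 and 0. These netrins did not separate the groups, and Tbc1d24 on the same strand overlaps the 3′ end of Ntn3. Ntn4, a basement membrane netrin, was listed at 0 in all 6 libraries.

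The 3 Slit genes and Robo1 to Robo3 were too sparse to test, and each but Slit3 had its highest value in glioma library 1. Slit2 was at 9.29 in glioma library 1, at 3.92 and 0.22 in normal libraries 2 and 3 and at 0 elsewhere. Slit1 was above 0 only in glioma library 1, at 3.12, and Slit3 stood at 2.46 in normal library 3 and 1.42 in glioma library 1. Robo1 was at 7.53, Robo2 at 7.61 and Robo3 at 7.40 in glioma library 1. Elsewhere Robo1 was listed at 0 in all libraries, and Robo2 and Robo3 were above 0 only in a normal library, at 3.42 and 2.00.

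**Figure D4:**
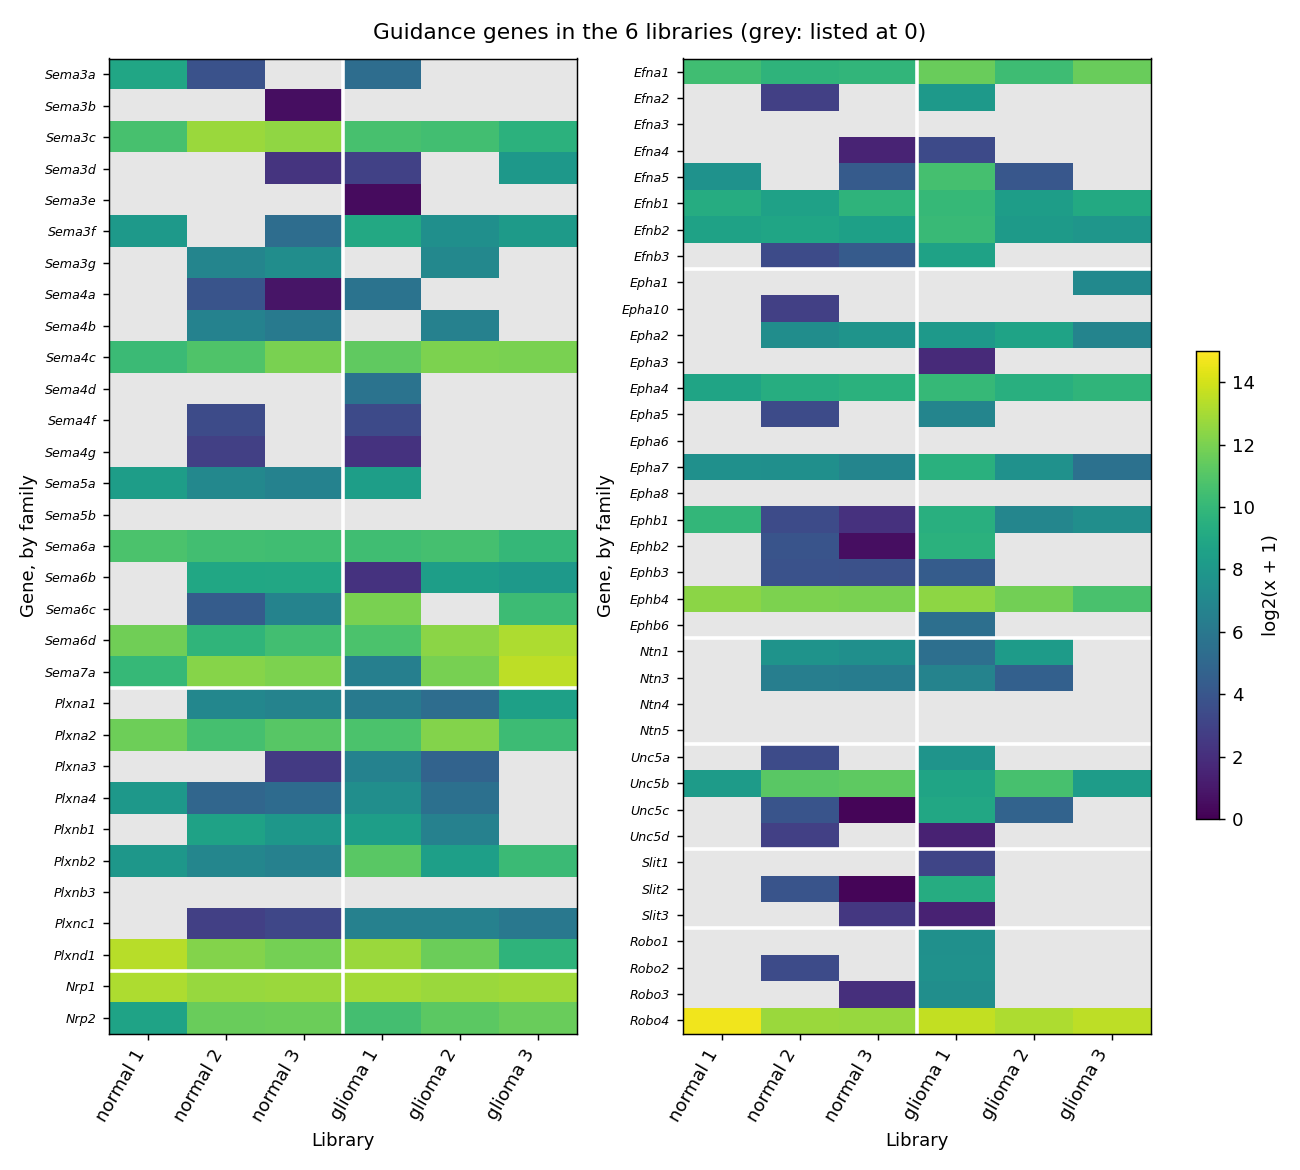
Value of each of the 68 members (rows, by family) in each library (columns, normal left and glioma right of the white line), with colour for log2(x + 1) and grey for genes listed at 0. Members above 0 number 24, 46 and 45 (normal) against 56, 33 and 27 (glioma).

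Glioma library 1 therefore stood apart from the other tumor libraries in this gene set. Of the 61 members above 0 in at least 1 library, 32 (52.5%) had their highest value there, against 23.9% of all 15633 such genes. Above 0 in that library alone were 6 of the 61 members, against 1032 of the 15633 genes (6.6%). The other libraries held the highest value of 4 to 7 members each. The 6 members of glioma library 1 alone were Sema3e, Sema4d, Epha3, Ephb6, Slit1 and Robo1. More genes were above 0 here (13108) than in any other library, and values reached down to 0.415, against 3.82 and 5.22 in glioma libraries 2 and 3. Normal library 3 had 13072 genes above 0 and values down to 0.22, and held the highest value of 6 members. The summed markers of 3 other cell types were highest in glioma library 1. Neuronal markers were above 0 for 11 of 12 genes, fewer than the 12 of 12 in normal libraries 2 and 3, with a summed level of 92.4, against 9.4 and 29.3 in glioma libraries 2 and 3 and 25.0 to 71.8 in normal libraries. Fibroblast markers were above 0 for 11 of 12 with a sum of 94.8, against 25.2 to 44.8 elsewhere, and markers of glioma or neural progenitor cells reached 109.6, against 76.2 to 85.8. Slc17a7, a marker of excitatory neurons, and Slc6a13 of the fibroblast list were at 0 in glioma library 1. Astrocyte markers summed to 61.8 there and to 41.6 to 73.6 elsewhere, oligodendrocyte lineage markers to 42.7 and to 7.9 to 57.2, and pericyte and smooth muscle markers to 71.9, the lowest of the libraries, against 85.7 to 100.8. The part of such cells in these values was not tested.

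**Figure D5:**
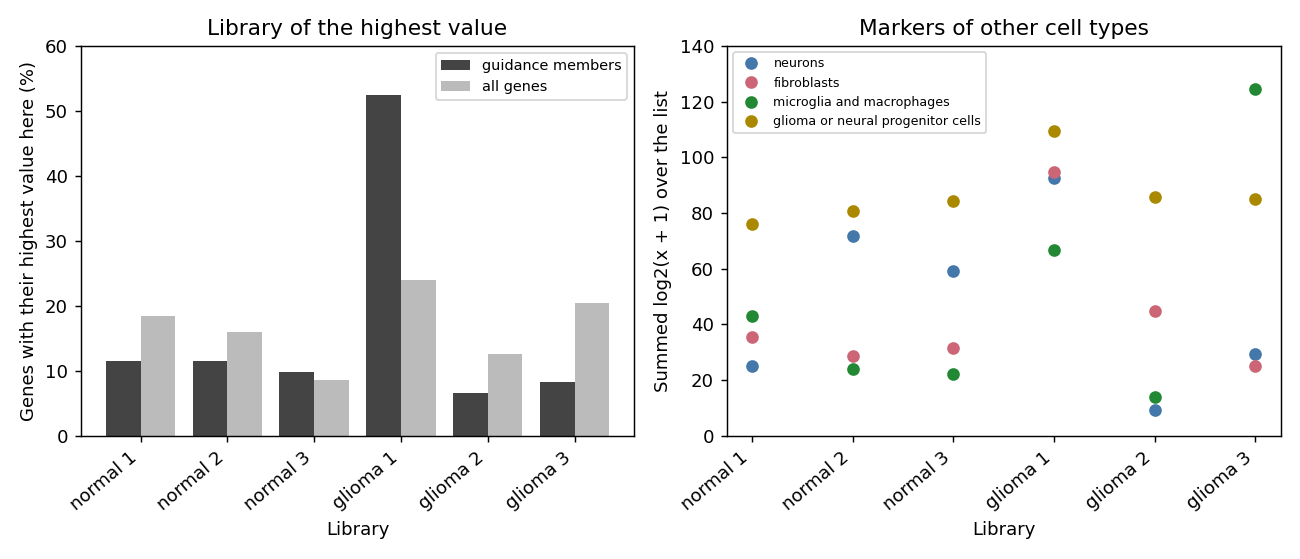
Left, share of the 61 members (dark bars) and of 15633 genes (grey bars) with their highest value in each library, and right, summed log2(x + 1) of 4 marker lists by library. Glioma library 1 holds the highest value of 52.5% of members and 23.9% of genes, and has the highest neuronal and fibroblast sums.

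Normal library 1 had 24 members above 0, the fewest, next to 27 in glioma library 3, and also the fewest genes above 0 (7446). It was low against normal libraries 2 and 3 for Nrp2, Unc5b, Sema7a and Sema3c and high for Robo4, Plxnd1, Ephb1 and Sema3a. Leaving it out moved the median difference of all genes from 0.05 to -0.36. Then 7 tested members lay wholly higher in glioma (14.9% of all genes did) and 3 wholly lower (20.6%). The 5 members added to the higher ones were Efna1, Ephb1, Robo4, Sema3f and Sema6d, and Sema6b and Unc5b joined Sema3c. None passed the limma test, whose smallest adjusted p over all genes was then 0.124. The count of higher members was also 4 without normal library 3 (9.58% of genes), 7 without glioma library 2 (11.6%) and 6 without glioma library 3 (12.3%), and the count of lower members was 5 without glioma library 1 (13.2%), where Efnb2, Ephb4, Plxnd1 and Sema5a joined Sema3c.

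Partners of these pathways that the symbol rule leaves out were read from a list of further receptors, adaptors and cytoskeletal effectors, of which 76 were in the files and 61 were tested. None passed the limma adjusted p of 0.05, their median difference was 0.20, and 4 lay wholly higher and 1 wholly lower in glioma (6.91% and 6.37% of all genes). Arhgef15, an endothelial signalling protein that acts downstream of Eph receptors, measured 11.08, 11.32 and 11.16 in normal EC against 8.96, 8.81 and 9.64 in glioma EC. The groups stood 1.44 apart, each with little spread (difference -2.05, SE 0.52, limma adjusted p = 0.875). Fyn, a Src family kinase recruited by plexins, netrin receptors and ephrins, measured 8.70, 9.15 and 9.73 in normal EC against 11.95, 11.24 and 11.47 in glioma EC. The groups stood 1.51 apart (difference 2.36, SE 0.53, limma adjusted p = 0.875), and an antisense gene overlaps the 3′ end of Fyn. Cdc42, a small GTPase of filopodia, was at 10.75, 10.97 and 11.27 against 11.47, 11.84 and 12.87, and Rasa1, a Ras GTPase-activating protein bound by Eph receptors, at 8.80, 9.19 and 9.49 against 9.75, 9.99 and 10.46, with Ccnh on the opposite strand over its 3′ end. Vasp, an actin regulator, was at 13.29, 12.72 and 12.81 against 13.45, 13.60 and 13.40. The gaps between the groups were 0.20 for Cdc42, 0.26 for Rasa1 and 0.11 for Vasp, each smaller than the SD of the normal group. Fyn and Arhgef15 were thus apart by more than the range within either group, without passing the test over all genes.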

How the data were processed

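RNA of sorted endothelial cells was sequenced from the 3′ end by the QuantSeq method of Lexogen (per the labels' protocols) in 3 normal and 3 glioma libraries, grouped by title. Bowtie2, edgeR and mm10 stand in the list of tools and builds, per the submitters' processing notes, with neither version nor role. The sources used here do not state the counter, its strand setting or the annotation. Each deposited file holds 1 log2 value per gene symbol. Read from the values, and stated in no label, they are log2(x + 1) of values that appear quantile-normalized: the highest value is 20.85 in each library, and nearly all x above 0 lie within 0.02 of a whole multiple of 1 divided by 6. Library totals are thereby lost, so depth is unknown and no counting interval is given. Such normalization can also shrink or create differences where the makeup of libraries differs.

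Group differences of these log2 values came from limma 3.58.1 under R 4.3.3 (group as the only term, mean trend in the variance prior, 4 residual degrees of freedom) over genes with x of at least 1 in at least 3 libraries, with Benjamini-Hochberg adjustment over all of them. The script was tested on data simulated from genes above 0 in all libraries only, so that test does not cover genes listed at 0 in a library. Where a group has a library at 0, each value is given in place of a mean. Members are all genes whose symbols match the family names. Genes to name were those with groups that do not overlap or an unadjusted p under 0.05, the 3 highest of each family, and 20 known vascular members, and further members are given to account for all. The members, the partner list and the marker lists of 8 cell types were chosen with earlier results of these data known. Positions and overlaps are from GENCODE (GRCm38, the build of mm10). Alternatives were no filter, only genes above 0 in all libraries, a shared floor, a pseudocount of 64, centred libraries, no mean trend, a replicate block and each library left out.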

Additional observations from a re-analysis of the deposited data

How the results depend on the processing

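No guidance member passed the adjusted threshold under any of the 13 alternatives, and no gene did except with no mean trend in the variance prior, where 15 genes passed, none of them a member. With only genes above 0 throughout, 1 member was wholly higher in glioma (5.05% of tested genes), and under the shared floor 1 was (4.14%). Both settings lost Plxnc1. Centred libraries gave 3, with Efna1 added (7.6%), and leaving out a library gave 2 to 7 (8.44% to 15.7%). Wholly lower were 0 members with centred libraries (5.59%) and 1 to 5 with a library left out (7.43% to 20.6%). The cause was not tested. With a library left out, the median ran from -0.82 to 0.95 for semaphorins and from -0.54 to 1.30 for ephrins. For the netrin, Unc5, Slit and Robo genes it ran from -1.99 (without normal library 1) to 1.41 (without glioma library 3), and it was 1.04 with no filter. Centring shifts every difference by the same amount, and with it the near-zero differences of Plxna2 (0.0715), Nrp1 (0.0538) and Efnb1 (0.0695) changed sign. The difference of Ntn1 changed sign with the shared floor (0.16). With a library left out, differences crossed 0 for Sema7a (-2.26 to 1.26), Plxna2 (-0.58 to 0.37), Nrp1 (-0.12 to 0.11), Nrp2 (-0.48 to 0.97), Efnb1 (-0.47 to 0.38), Efnb2 (-0.61 to 0.51), Epha7 (-0.70 to 1.25), Ntn1 (-3.00 to 1.81), Ntn3 (-2.59 to 1.41) and Robo4 (-0.30 to 0.72). Same-numbered libraries deviated from their group means with correlations of 0.13, 0.03 and 0.06, and other pairs across the groups with -0.14 to 0.085. The deviations of 3 libraries sum to 0 within a group, so these values cannot show whether the titles' numbers pair libraries. With the replicate block, 0 genes and 0 members passed. The counts of members wholly higher and wholly lower are read from the values alone, so a block cannot change them. Depth is unknown, and members below 7.43 cannot be told from 0 in normal library 1. A 0 in that library also occurred for genes well above 7.43 in normal libraries 2 and 3, such as Dag1 (12.44 and 12.60) and the member Sema6b (8.91 and 8.97).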
